A study of Mus musculus with 6 samples.

Results

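The enzymes that remove superoxide and hydrogen peroxide were compared between the adrenal glands of a hypertensive mouse strain, BPH, and a hypotensive one, BPL. The set was 10 named genes: the superoxide dismutases Sod1, Sod2 and Sod3, catalase (Cat), the glutathione peroxidases Gpx1, Gpx3 and Gpx4, and the peroxiredoxins Prdx1, Prdx3 and Prdx6. A gene was measured through every probe set whose only annotated symbol was its own, which gave 9 probe sets for 8 of the 10 genes, of 8251 genes with such a probe set. Cat had 2 probe sets, both probe sets annotated to Prdx1 also carried a second symbol and were not used, and no probe set was annotated to Prdx6 in the table used here. BPH males and BPL males of 12 weeks, with 3 arrays each, gave adrenal RNA for Affymetrix expression arrays. Both lines were bred by selection on blood pressure, and the labels name no transgene and no agent in either. Whether an array carries RNA of a single animal is not stated, so p-values measure the spread between arrays, which may be partly technical.

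Superoxide forms where electrons leak to oxygen, mainly at the respiratory chain and at cytochrome P450 enzymes. Superoxide dismutases turn it into hydrogen peroxide, which catalase, glutathione peroxidases and peroxiredoxins turn into water. In the adrenal cortex the mitochondrial P450 enzymes of steroid synthesis are a source of both, and in mouse adrenal Prdx3 is known to be inactivated by peroxide during corticosterone synthesis and restored by sulfiredoxin (Srxn1).

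None of the 9 probe sets passed the test between strains. Signals were scaled to a common array median and taken as log2(signal + 203), and limma's moderated test with Benjamini-Hochberg adjustment over all 7453 tested probe sets was read at 0.05. It called 0 of the 9, where 4.11% of all tested probe sets were called. Of the 9, 2 (Sod2 and Prdx3) had an unadjusted p under 0.05, where 20.6% of all probe sets did. The median log2 difference (BPH minus BPL) of the 9 was 0.04, beside 0.08 for all tested probe sets. All 9 were bright enough to be tested. With the spread of these arrays a member would have passed at a fold of between 1.55 and 2.08, depending on the probe set, so smaller differences were not detectable.

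**Figure D1:**
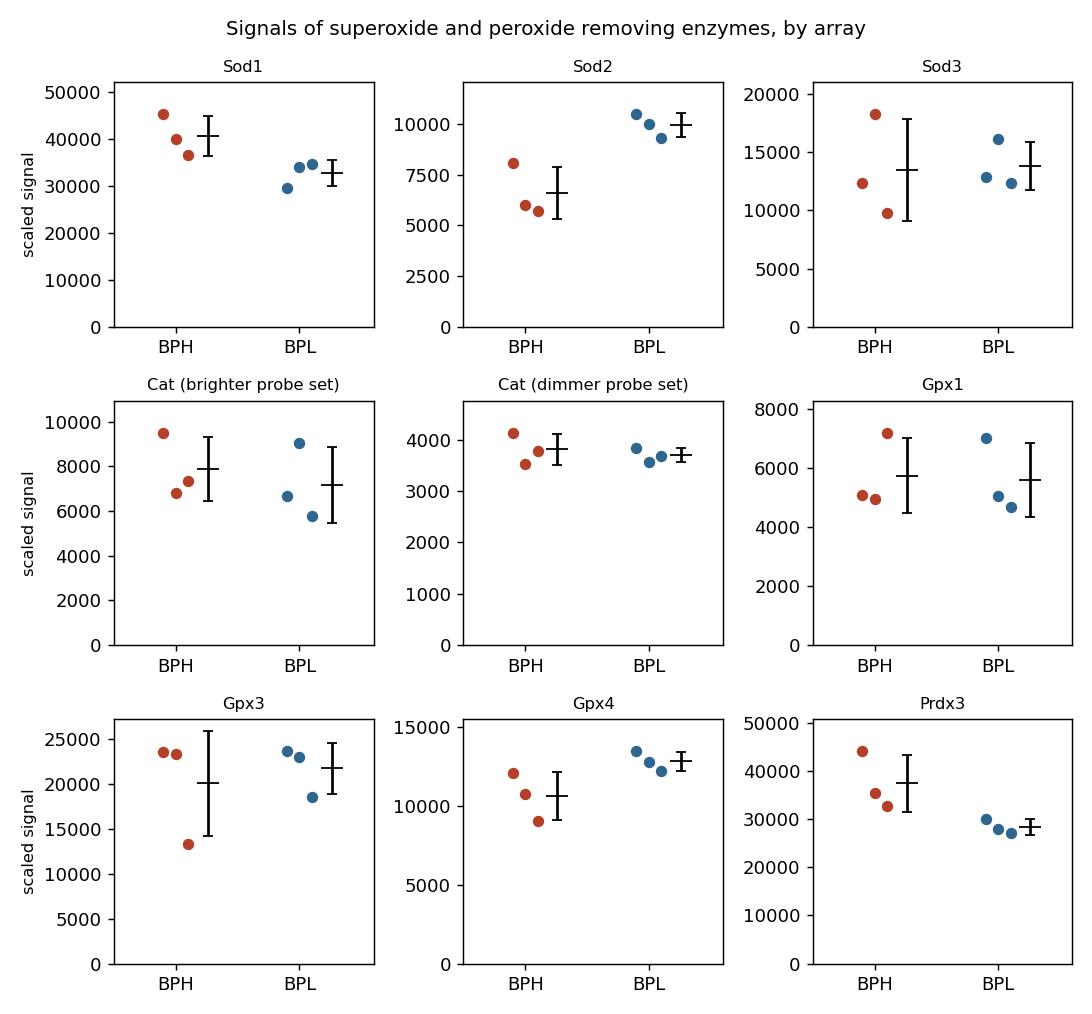
Scaled signals of the 9 probe sets, 1 point per array, BPH on the left of each panel and BPL on the right, with mean and SD (n = 3) beside the points. The strains do not overlap for Sod1 and Prdx3, higher in BPH, and for Sod2 and Gpx4, lower in BPH. They overlap in the other 5 panels.

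For 4 of the 9 the strains' arrays did not overlap, with 2 above and 2 below BPL. Over all tested probe sets 27.6% did not overlap, 19.7% higher and 7.97% lower in BPH. The same 4 did not overlap with the signals as the authors scaled them.

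Sod2, the manganese superoxide dismutase of the mitochondrial matrix, differed most. Its signals were 8070, 5976 and 5726 in BPH replicates 1, 2 and 3, against 10476, 9989 and 9300 in BPL replicates 1, 2 and 3. All 3 BPH arrays lay below all 3 BPL arrays, and BPH replicate 1 was nearest to them. The mean was 6591 ± 1287 in BPH and 9922 ± 591 in BPL (SD, n = 3 each), a log2 difference of -0.59 ± 0.18 (SE) with a 95% interval of -0.99 to -0.19. It did not pass (limma adjusted p = 0.11, unadjusted p = 0.0090). In bulk tissue, fewer cells of a type and less RNA per cell cannot be told apart. Tissue outside the adrenal gland differed between the same arrays. The summed signal of 8 of 8 skeletal muscle markers was 1619 to 2443 in BPH and 22100 to 307329 in BPL. Without BPL replicates 1 and 2, the arrays with most muscle signal, the Sod2 difference was -0.50, against a single BPL array. That array, BPL replicate 3, still had a muscle sum of 22100, so the muscle difference was not removed. The summed signal of 5 of 6 fat markers was 175853, 117695 and 122360 in BPH replicates 1, 2 and 3 and 164482 to 182367 in BPL. Among BPH arrays, replicate 1 was highest in both fat markers and Sod2. This was not particular to Sod2: replicate 1 was also the highest BPH array for Sod1, Gpx3, Gpx4, Prdx3 and both Cat probe sets. It was not for Sod3 or Gpx1. The part of muscle and fat tissue in the Sod2 difference was not tested.

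Sod1, the copper and zinc dismutase of the cytosol, had signals of 45235, 39972 and 36641 in BPH, against 29616, 33926 and 34682 in BPL. Every BPH array was above every BPL array, the nearest by a small margin. The log2 difference was 0.31 ± 0.16 with a 95% interval of -0.05 to 0.67 (limma adjusted p = 0.31). Sod3, the secreted dismutase of the extracellular space, had signals of 12385, 18285 and 9740 in BPH, against 12915, 16180 and 12322 in BPL. Both the highest and the lowest Sod3 signal were in BPH, and the log2 difference was -0.07 ± 0.24 (95% interval -0.62 to 0.48, limma adjusted p = 0.89). Its direction turned without BPH replicate 3, at 0.13, and without BPL replicate 2, at 0.05.

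Catalase, the peroxisomal enzyme that breaks peroxide down without a reducing partner, had overlapping groups on both probe sets. The brighter probe set read 9513, 6799 and 7329 in BPH, against 6673, 9065 and 5788 in BPL, a log2 difference of 0.14 ± 0.21 (95% interval -0.34 to 0.62, limma adjusted p = 0.74). The dimmer one read 4137, 3536 and 3785 in BPH, against 3838, 3566 and 3679 in BPL, a log2 difference of 0.04 ± 0.15. Its 95% interval was -0.29 to 0.37 (limma adjusted p = 0.89), the narrowest of the 9, and covers folds of 0.82 to 1.30. The 2 probe sets ordered the BPL arrays differently: BPL replicate 2 was the highest of them on the first and the lowest on the second.

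The glutathione peroxidases gave 3 different pictures. Gpx4, which reduces lipid peroxides within membranes, had signals of 12083, 10773 and 9077 in BPH, against 13479, 12767 and 12251 in BPL. The groups did not overlap, with BPH replicate 1 close to BPL replicate 3, and the log2 difference was -0.27 ± 0.16 (95% interval -0.64 to 0.10, limma adjusted p = 0.37). Gpx1, the abundant form of cytosol and mitochondria, had signals of 5099, 4941 and 7202 in BPH, against 7031, 5066 and 4691 in BPL. In each strain a single array stood above the other two, and the strain means of 5747 ± 1262 in BPH and 5596 ± 1257 in BPL (SD, n = 3 each) were close, at a log2 difference of 0.04 ± 0.22 (95% interval -0.45 to 0.53, limma adjusted p = 0.94). That sign turned without BPH replicate 3, at -0.13, without BPL replicate 3, at -0.07, and without BPL replicate 2, at -0.02. Gpx3, the secreted form found in plasma and made in kidney and fat among other tissues, had signals of 23541, 23399 and 13361 in BPH, against 23684, 23050 and 18539 in BPL. Replicate 3 was the lowest array of each strain, and the log2 difference of -0.15 ± 0.24 (95% interval -0.70 to 0.40, limma adjusted p = 0.76) was 0.12 without BPH replicate 3.

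Prdx3, the peroxiredoxin of mitochondria, had signals of 44101, 35528 and 32650 in BPH, against 30102, 27918 and 27027 in BPL. All BPH arrays were above all BPL arrays. The mean was 37426 ± 5957 in BPH and 28349 ± 1582 in BPL (SD, n = 3 each), a log2 difference of 0.39 ± 0.17 with a 95% interval of 0.01 to 0.77. It did not pass (limma adjusted p = 0.23, unadjusted p = 0.046). Without BPL replicates 1 and 2 the difference was 0.46, with the remaining BPL array still above BPH in muscle signal.

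**Figure D2:**
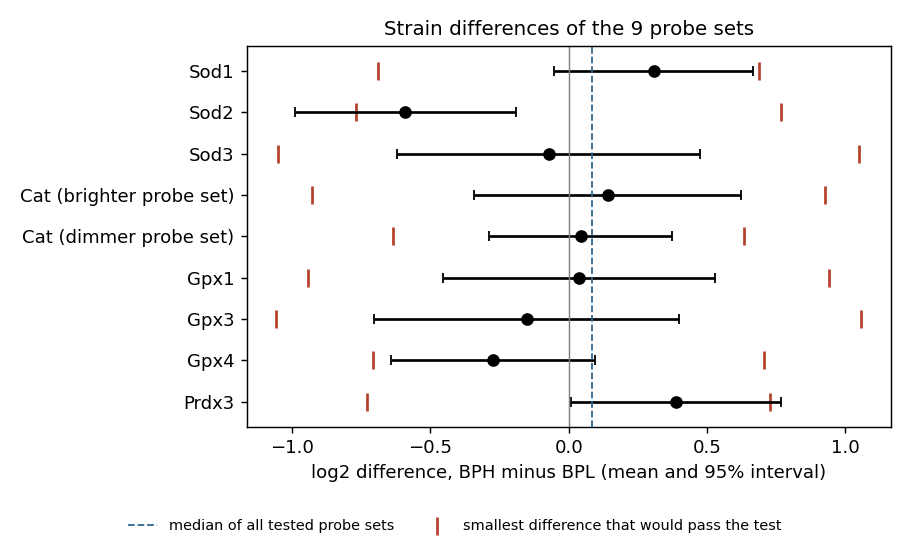
Log2 difference of BPH minus BPL for each probe set, with its 95% interval from limma, the median of all tested probe sets (0.08) and, as short bars on both sides, the smallest difference that would have passed the test. No point lies beyond its bars. The intervals of Sod2 and Prdx3 leave out 0, on opposite sides.

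Sod2 and Prdx3, the 2 with a limma unadjusted p under 0.05, thus lay on opposite sides of 0. Because the array's scaling cancels in a ratio of probe sets on the same array, the ratio was taken for all 36 pairs of the 9 probe sets from the signals as deposited. This was done after the values had been seen, the ratio of levels itself has no meaning across probe sets, and it shows unequal change and not which gene changed. Sod2 over Prdx3 was 0.18, 0.17 and 0.18 in BPH replicates 1, 2 and 3, against 0.35, 0.36 and 0.34 in BPL replicates 1, 2 and 3. The ratio was nearly constant within a strain, with an SD of 0.06 in BPH and 0.03 in BPL on the log2 scale, and the strains differed by -0.996 on the log2 scale. This was the largest of the 36 differences. Of all pairs of tested probe sets on the arrays, 13.0% differed at least as much. That share counts single pairs and includes dimmer probe sets, while this pair is the largest of 36. No verdict on its size is drawn from the share. The ratio did not overlap between strains for 12 of the 36 pairs, where 28.4% of all pairs of tested probe sets did not. Sod2 was in 8 of the 36 pairs and in 6 of the 12. Pairs with Sod2 share its signals, so they are not separate counts. Gpx4 over Prdx3 was 0.27, 0.30 and 0.28 in BPH, against 0.45, 0.46 and 0.45 in BPL, a log2 difference of -0.67.

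**Figure D3:**
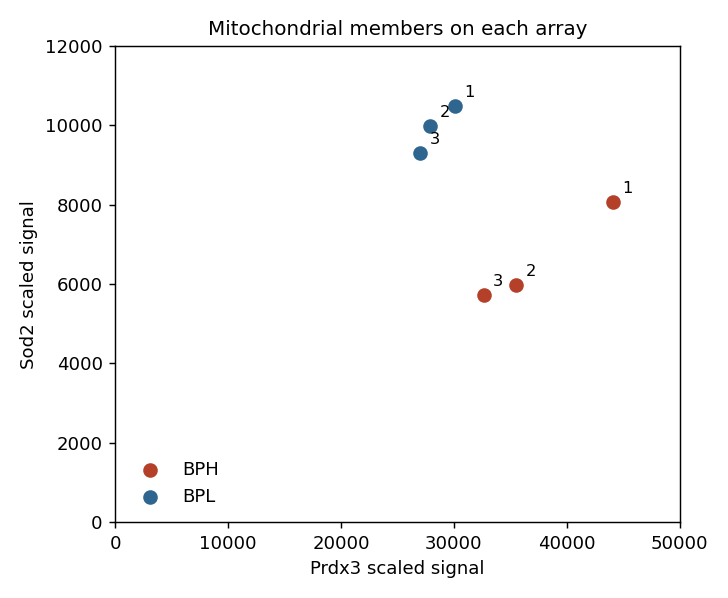
Scaled signals of Sod2 (vertical) and Prdx3 (horizontal) on each array, numbered by replicate, both axes from 0. Within each strain the arrays rank the same way for both genes, and the BPL arrays lie above and to the left of the BPH arrays.

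The upstream sequences of the pair with opposite differences, and of Sod1, are shown because the strains did not overlap for these 3 genes and each has a single RefSeq start in the table, unlike Gpx4. Each is the 250 bases before the RefSeq transcript start on GRCm38.p6. Capitals mark matches to the GC box GGGCGG and to the core of the antioxidant response element, TGANNNNGC, each searched on both strands with overlaps allowed.
Sod2 (chr17:13007589-13007838, plus strand): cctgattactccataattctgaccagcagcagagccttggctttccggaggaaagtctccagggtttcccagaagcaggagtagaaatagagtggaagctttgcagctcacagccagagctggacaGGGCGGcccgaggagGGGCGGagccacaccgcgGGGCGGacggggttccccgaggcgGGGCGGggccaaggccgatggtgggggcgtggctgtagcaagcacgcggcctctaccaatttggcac
Prdx3 (chr19:60874539-60874788, minus strand): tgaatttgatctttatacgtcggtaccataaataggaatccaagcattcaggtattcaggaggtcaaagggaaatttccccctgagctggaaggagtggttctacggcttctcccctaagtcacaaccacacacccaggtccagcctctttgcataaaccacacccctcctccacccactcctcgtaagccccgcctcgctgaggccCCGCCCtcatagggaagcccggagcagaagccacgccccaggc
Sod1 (chr16:90220512-90220761, plus strand): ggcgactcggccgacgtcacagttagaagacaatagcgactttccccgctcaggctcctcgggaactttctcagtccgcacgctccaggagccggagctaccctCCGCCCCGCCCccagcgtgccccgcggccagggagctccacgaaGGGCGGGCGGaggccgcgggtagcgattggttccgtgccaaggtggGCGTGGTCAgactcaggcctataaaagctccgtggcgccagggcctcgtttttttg
Sod2 has 4 GC boxes in this window, Prdx3 has 1 and Sod1 has 4. The antioxidant response element core is matched once in Sod1 and in neither of the others. Over the members, windows were found for 7 of the 8 measured genes, 10 windows in all since Gpx4 has several starts. A GC box is in 8 of the 10, against 32.7% of all windows of this length in the table, and the antioxidant core is in 1 of the 10, against 35.2%. Some Gpx4 windows overlap and share GC boxes, so windows are not separate counts. By gene, a GC box is in 6 of the 7 and the antioxidant core in 1. A match is only a run of letters.

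The related genes came from lists of partners, suppliers and producers, with 1 probe set per gene. Of 84 such genes that were tested, the probe set used was called higher in BPH for 3 and lower for 1. Over all tested genes 4.25% were called, 3.35% higher and 0.900% lower. Of all 5664 tested genes, 2174 had negative differences and 1162 had a limma unadjusted p under 0.05. Among the 84 these counts were 35 and 28. The median log2 difference of the 84 was 0.09, as for all genes (0.09). It was 0.029 without BPH replicate 1 and 0.14 without BPH replicate 3. The called genes were Srxn1, on its brighter probe set only, Glo1, Hao2 and Tkt. A dimmer probe set of Gss, not the one used for the list, was called lower.

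Among 13 tested genes of the thioredoxin, glutaredoxin and peroxiredoxin system, 1 was called higher and 0 lower on the probe set used. The median log2 difference was 0.16 (0.34 without BPH replicate 3). The call was for Srxn1, sulfiredoxin, which repairs peroxiredoxins that peroxide has over-oxidised. Its brighter probe set read 24097, 24281 and 20234 in BPH, against 1921, 2687 and 2460 in BPL, a log2 difference of 3.18 ± 0.17 (limma adjusted p = 7.9e-05). The dimmer one read 2251, 2321 and 2198 in BPH, against 2437, 2494 and 2010 in BPL, at -0.03 ± 0.15 (limma adjusted p = 0.93). The 2 probe sets disagree, so no direction is given for the gene. In BPL their means were close, at 2356 and 2314. The first was thus the brighter, and the one used for the list, through its BPH signal. Its call and its place among the higher counts rest on that choice. The electron donors of Prdx3 did not pass: mitochondrial thioredoxin Txn2 was at 21695, 23963 and 19442 in BPH, against 14793, 16338 and 16748 in BPL, which is 0.44 ± 0.15 on the log2 scale (limma adjusted p = 0.17). Its reductase Txnrd2 was at 0.10 ± 0.17 (limma adjusted p = 0.76). In the cytosol, thioredoxin Txn1 differed by 0.51 ± 0.17 (limma adjusted p = 0.14) and its reductase Txnrd1 by 0.42 ± 0.19 (limma adjusted p = 0.25). The cytosolic peroxiredoxin Prdx2 gave 0.35 and 0.57 on its 2 tested probe sets, and Prdx4, of the endoplasmic reticulum, 0.31, with no call. Txnip, the inhibitor of thioredoxin, was at 0.13 and 0.12 on its 2 probe sets.

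Glutathione synthesis and reduction had 1 gene of 8 higher and 0 lower, with a median of 0.19 (0.059 without BPH replicate 1 and 0.34 without BPH replicate 2). Glo1, which uses glutathione to clear methylglyoxal, was at 13902, 12205 and 12466 in BPH, against 5876, 7271 and 7837 in BPL on its brighter probe set. The log2 differences were 0.87 ± 0.17 (limma adjusted p = 0.026) there and 0.88 ± 0.19 (limma adjusted p = 0.038) on its other probe set. Glutathione reductase Gsr, which renews the glutathione used by Gpx enzymes, differed by 0.23 ± 0.20 (limma adjusted p = 0.54). The subunits of the first synthesis step, Gclc and Gclm, differed by 0.44 ± 0.18 (limma adjusted p = 0.22) and 0.15 ± 0.22 (limma adjusted p = 0.73). Glutathione synthetase Gss had probe sets that disagree, at 0.67 ± 0.24 (limma adjusted p = 0.17) on the brighter and -1.49 ± 0.22 (limma adjusted p = 0.0092) on the dimmer one. The dimmer Gss probe set was called in all 14 alternative settings that tested it, and the brighter in 0 of 15.

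Of 8 tested genes listed for the supply of NADPH, the reductant behind both systems, 0 were higher and 1 was lower. In all, 7 had negative differences (median -0.18), where 2174 of all 5664 tested genes did. The lower one was Tkt, a transketolase of the pentose phosphate pathway, at 40556, 39279 and 31583 in BPH, against 72718, 69405 and 56801 in BPL. Its log2 difference was -0.83 ± 0.17 (limma adjusted p = 0.036). Tkt itself does not form NADPH, and no other gene of the list was called. The mitochondrial suppliers Idh2 and Nnt were at -0.36 ± 0.23 and -0.06 ± 0.26. Of 8 tested genes listed under copper and selenium supply 0 were called by limma (median 0.28, and 0.16 without BPL replicate 1). A limma unadjusted p under 0.05 was found for 3 of them, where 1162 of all 5664 tested genes had one. That list includes the selenoproteins Selenok and Selenof. Ccs, the chaperone that loads copper into Sod1, was at 0.28 ± 0.21 (limma adjusted p = 0.47) on its brightest probe set and at -0.27 and 0.53 on the other tested ones.

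Of 11 tested genes listed under superoxide and peroxide production, 1 was higher and 0 lower (median 0.33, and 0.20 without BPL replicate 1). The list includes Cyba, Rac1 and Rac2, which do not form superoxide themselves. The called gene was Hao2, a peroxisomal hydroxyacid oxidase that releases peroxide. It was at 36388, 33683 and 32659 in BPH, against 11801, 16295 and 19916 in BPL, a log2 difference of 1.12 ± 0.21 (limma adjusted p = 0.023). Of 23 genes of peroxisome assembly and peroxisomal metabolism, the organelle of Cat, 0 were called by limma, 8 had an unadjusted p under 0.05 and 15 had negative differences (median -0.15, with -0.23 without BPH replicate 1 and -0.059 without BPH replicate 3). Over all 5664 tested genes, 1162 had a limma unadjusted p under 0.05 and 2174 had negative differences. Of 13 genes listed as regulators of antioxidant genes, Hmox1 included, 0 were called by limma and 5 had an unadjusted p under 0.05. Their median was 0.10, and leaving out 1 array made it 0.025 (BPH replicate 1), 0.065 (BPH replicate 2), 0.058 (BPL replicate 1) or 0.16 (BPL replicate 2). The nearest was Nfe2l2, the factor that binds antioxidant response elements, at 15763, 12930 and 13101 in BPH, against 8122, 9358 and 8820 in BPL, a log2 difference of 0.65 ± 0.16 (limma adjusted p = 0.058). It was called in 3 of the 15 alternative settings, namely the higher pseudocount, the stricter filter and the trended and robust variance. Sirt3, the mitochondrial deacetylase that activates the Sod2 protein, was at 1337, 1177 and 909 in BPH, against 1587, 2144 and 1894 in BPL, a log2 difference of -0.63 ± 0.18 (limma adjusted p = 0.11).

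**Figure D4:**
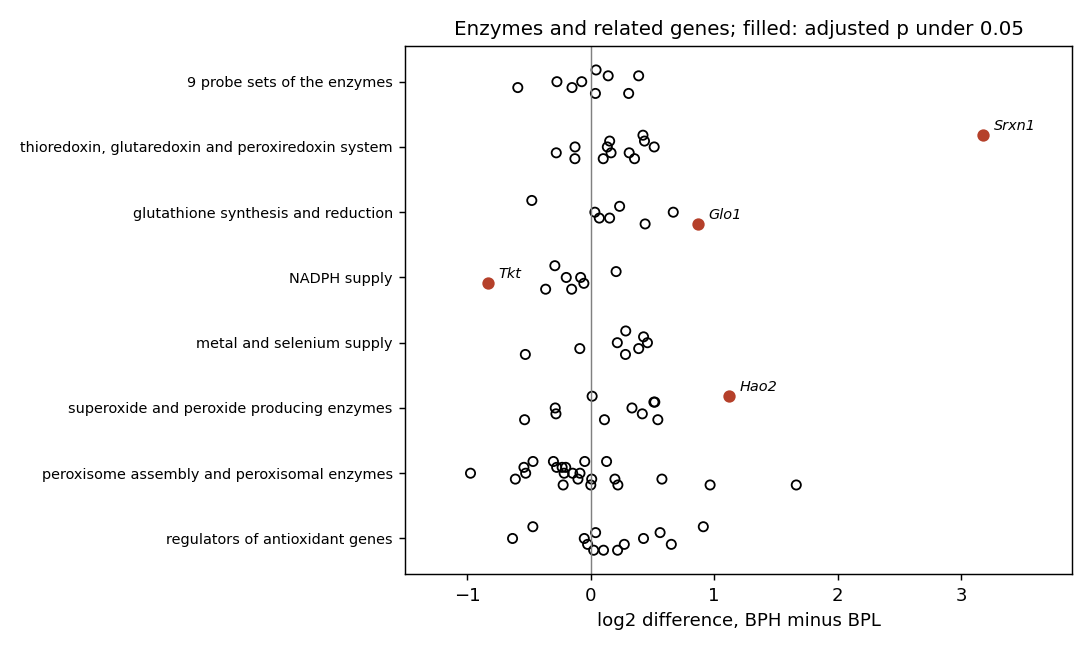
Log2 difference of BPH minus BPL for the 9 probe sets of the enzymes (top) and for the related genes by list, 1 probe set per gene and 1 point each. Filled points passed the limma test at an adjusted p under 0.05 (Srxn1 on its brighter probe set, Glo1, Tkt and Hao2), and open points did not.

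Over 15 alternative settings the log2 differences kept their direction: 0.70 to 0.95 (brighter Glo1 probe set), -0.99 to -0.62 (Tkt) and 0.77 to 1.29 (Hao2). With 1 array left out, 101 to 375 probe sets of the whole table were called, against 306. The calls of Glo1 and Tkt were lost without any one of BPH replicates 1, 2 and 3, BPL replicate 1 or BPL replicate 2. They were also lost with the replicate number as a block or without a filter. The call of Hao2 was lost without any one of the BPH arrays or BPL replicate 2, and without a filter. All of these were lost without BPL replicates 1 and 2 together, while the brighter Srxn1 probe set was called in all 15 alternative settings.

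Markers of other cells gave the following on the same arrays, and their part in the differences above was not tested. Cortex and medulla markers of the labelled tissue were bright in both strains. The summed signal of 6 of 6 cortex markers was 455601 to 538712 in BPH and 373796 to 490127 in BPL, and that of 6 of 6 medulla markers 229150 to 298399 in BPH and 144389 to 226085 in BPL. Red cells, which are rich in Cat, Prdx2 and Gpx1, had 4 of 6 markers measured, with sums of 68611 to 89582 in BPH and 51073 to 85033 in BPL. Macrophage markers, 6 of 6, summed to 8419 to 10654 in BPH and 7023 to 7722 in BPL. Kidney markers, 6 of 6, summed to 1503, 5763 and 2285 in BPH replicates 1, 2 and 3 and to 1432 to 2850 in BPL. On BPH replicate 2 Kap alone read 3564, and 5 of the 6 were too dim to be tested. Liver markers, 4 of 5, summed to 1106, 1491 and 9263 in BPH replicates 1, 2 and 3. In BPL replicates 1, 2 and 3 they summed to 1879, 31524 and 2358. The high liver sums were thus on BPH replicate 3 and BPL replicate 2 alone. Endothelial markers, 4 of 4, summed to 8772 to 9715 in BPH and 6469 to 8854 in BPL. No marker of these lists was listed at 0, but the lowest value of any probe set was 0.655, so this does not show detection. Single markers differed by -6.47 ± 0.63 for the muscle actin Acta1, -0.84 ± 0.24 for the brown fat protein Ucp1, 1.28 ± 0.24 for the medullary enzyme Th and 0.17 ± 0.17 for the cortical cholesterol carrier Star on the log2 scale, and of these Acta1 and Th were called. Of the 5 fat markers, 2 (Adipoq at 0.08 and Lep at 0.07) had positive and 3 negative differences, with a median of -0.39, and 0 were called by limma, with 2 at an unadjusted p under 0.05. As a sign of RNA quality, control probe sets at the 3' end over those at the 5' end gave log2 ratios of 0.17 ± 0.07 in BPH and -0.001 ± 0.05 in BPL for Gapdh, and 1.08 ± 0.16 in BPH and 0.86 ± 0.06 in BPL for Actb (SD, n = 3 each). On both controls every BPH array was above every BPL array, so RNA quality and strain cannot be told apart here.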

How the data were processed

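Adrenal RNA of 3 BPH and 3 BPL arrays was measured. Each deposited value is a linear intensity of 1 probe set on 1 array, computed by the authors with MAS5 (submitters' processing notes). Which MAS5 version and settings were used is not given in the sources used here. The trimmed mean (2% at each end) was 2501.34 to 2501.53 for each array, and values lay between 0.655 and 172631. No detection calls were used. The number of arrays limits the precision.

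Of 12488 probe sets, 66 controls were left out. GEO's platform annotation gave 1 symbol for 10833 of the others, several for 396 and none for 1193. Array medians differed by 21.0%, above a tolerance of 10%, so arrays were scaled to the mean of their medians (1040). Signals are printed after scaling. Values were log2(signal + 203), the 20th percentile, on which changes of dim genes are understated. After leaving out the 40% with the lowest mean log2 value, 7453 probe sets were tested. limma 3.58.1 in R 4.3.3 (lmFit, eBayes, 4 residual and 4.50 prior degrees of freedom) gave 2-sided p-values, adjusted by Benjamini-Hochberg, and standard errors.

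The members, lists and tests were chosen with earlier results of these data known. Named genes were all members, called genes of the pathway lists and a fixed set of partners. Sirt3, Txn2, Txnrd2, Idh2, Nnt, Gss and Nfe2l2 were chosen after their values were seen. Lists used the brightest tested probe set per gene. Alternatives changed the scaling, pseudocount, filter, variance model, arrays and replicate block. The model was checked on simulated data. Sequences are from RefSeq.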

Additional observations from a re-analysis of the deposited data

How the results depend on the processing

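Over 15 alternative settings, Sod1, Sod2, Gpx4 and Prdx3 kept their direction, with log2 differences (BPH minus BPL) of 0.14 to 0.38, -0.74 to -0.50, -0.44 to -0.17 and 0.22 to 0.48. With quantile normalization 1 of the 9 member probe sets was called, Sod2, at -0.74 (limma adjusted p = 0.049). Its adjusted p lay between 0.049 and 0.64 over the 15, and 0 members were called by limma in the other 14. The median of all tested probe sets was 0.08 as reported, -0.02 with the authors' scaling and -0.00043 after quantile normalization. Under those scalings Gpx1 was at -0.075 and -0.094 and the dimmer Cat probe set at -0.068 and -0.073, and the brighter Cat probe set was at -0.0084 after quantile normalization, each turned in sign. Without BPL replicates 1 and 2 together, Sod3 was at 0.079 and Gpx3 at 0.069, also turned. Leaving out 1 array at a time gave -0.31 to 0.13 for Sod3, -0.013 to 0.095 for the dimmer Cat probe set, -0.13 to 0.21 for Gpx1 and -0.29 to 0.12 for Gpx3. The cause of these changes was not tested.

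Of all probe sets, 306 were called, against 127 without a filter, which tests more probe sets, 87 without BPL replicates 1 and 2, and 101 to 375 with 1 array left out. Of the 84 related genes, 3 higher and 1 lower were called, with Srxn1 counted by its brighter probe set. Higher calls were 6 with the higher pseudocount, 6 with a trended and robust variance, 5 with the stricter filter, 1 without a filter and 1 to 3 with 1 array left out. Lower calls were 3 with the authors' scaling, 0 without a filter, 0 without BPL replicates 1 and 2, and 0 to 2 with 1 array left out, by limma in each case. Their median was -0.027 with the authors' scaling and -0.035 after quantile normalization, against 0.09. The median of the regulators turned in sign too, at -0.012 and -0.043. That of the NADPH list was -0.0094 without BPL replicates 1 and 2, against -0.18.

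The strains share replicate numbers, but same-numbered arrays deviated from their strain means with correlations of -0.058, -0.054 and -0.18 across probe sets, so the numbers were not taken as pairs. With the replicate block 239 probe sets and 0 members were called by limma.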
